A study of Boehmeria nivea with 2 samples.

Results

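The cytochrome P450 monooxygenases described here are 153 of the 46533 unigenes (assembled transcripts) of ramie (Boehmeria nivea) leaves. They were chosen by name alone: the Swiss-Prot best hit of each contains the words cytochrome P450. The name was found on 168 unigenes, of which 11 of family CYP86 and 4 NADPH-cytochrome P450 reductases were set aside and are described at the end. The members fall into 23 numbered families with 61 different hit names, and 2 members hit a P450 fragment with no family number.

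Ramie plants of the variety Chuanzhu 8, 30 days old, made up both groups. In the challenged group (CH), 2 larvae of the ramie moth (RM, Cocytodes coerulea), fasted for 12 h, were put on the 4th leaf from the shoot apex of each plant. The control group (CK) had no larvae. In both groups the topmost 2 undamaged leaves were taken at 12, 24, 48 and 72 h from 5 plants per time point, and RNA of the 4 time points was mixed into 1 library, so the leaf on which larvae fed was not sequenced, and differences over time or among plants are averaged out. With 1 library per group, every difference below compares 2 libraries and has no replicate check.

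Cytochrome P450s are heme enzymes that split molecular oxygen and insert one of its atoms into a substrate. Most plant P450s sit in the membrane of the endoplasmic reticulum and draw electrons from NADPH-cytochrome P450 reductase. In leaves they build and break down hormones, make the fatty acid derivatives of the cuticle and the precursors of lignin, and produce many of the phenolics, terpenoids and nitrogen-containing compounds with which plants meet insects. A family number groups proteins of related sequence, and the role of a ramie unigene is known here only through its best hit in another species.

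The annotation that the choice did not use described the same kind of protein. Of the 101 members with a COG class, 99 were in the class of secondary metabolites, and among the 152 with a GO term 99 carried monooxygenase activity, 92 heme binding and 73 the endoplasmic reticulum. A family number stood in the Nr name of 53 members and matched the Swiss-Prot family in 44 of them. The best Swiss-Prot hit was an Arabidopsis protein for 56 members and a soybean protein for 32. In Nr, 151 members were closest to a land plant, 40 of them to Prunus. The exception, a CYP97B2-like unigene, is described below.

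Many members were pieces of transcripts. The median length was 796 bp, against 423 bp over all unigenes, but 60 members were shorter than 500 bp and 68 reached 1000 bp. The 153 members came from 140 assembled components (groups of transcripts that the assembler linked), and 13 components held several members. Unigenes of one component, or of one subfamily, can share reads or be parts of one gene, so a count of unigenes is not a count of genes.

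Together the members took 81399 of 26938918 counted fragments in CH, a share of 0.302% (exact 95% interval 0.300 to 0.304), and 55135 of 17800062 in CK, a share of 0.310% (0.307 to 0.312). The summed share of these members was thus almost level between the libraries while single members moved apart. This does not hold for all P450s. With CYP86 and the P450s listed under reaction names added, the share was 0.832% in CH and 0.638% in CK. That is a ratio of 1.30 (1.29 to 1.31). At least 1 read was found for 149 members, and 106 had at least 10 reads over both libraries. Levels between genes are given as RPKM, reads scaled to effective length and library total. Median RPKM of the members was 1.84 in CH and 1.87 in CK, with 5 members at 100 RPKM or more in each library and 62 in CH and 61 in CK below 1 RPKM.

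A member was called higher or lower in CH where the Audic-Claverie test, which asks whether 2 counts can come from one expression level, gave an adjusted p below 0.01 and the RPKM differed at least 2-fold. By this rule 11 members were higher and 12 lower in CH. Over all 43302 unigenes with a read, 2.48% were higher and 4.28% lower in CH (6.76% in either direction), against 7.38% and 8.05% of the 149 members with a read. Because members were longer than most unigenes, the share among unigenes with at least 10 reads is the closer background: 4.54% were higher and 7.71% lower there (12.3% in either direction), against 10.4% and 11.3% of the 106 members. The median log2 ratio of these 106 members was -0.22 (95% interval of the median -0.49 to 0.03), and that of all 23653 unigenes of this depth was -0.01. With an assumed biological coefficient of variation of 0.2 between libraries, 3 higher and 4 lower members stayed called. Ratios below are counts per library total, with exact 95% intervals that cover counting error only.

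**Figure D1:**
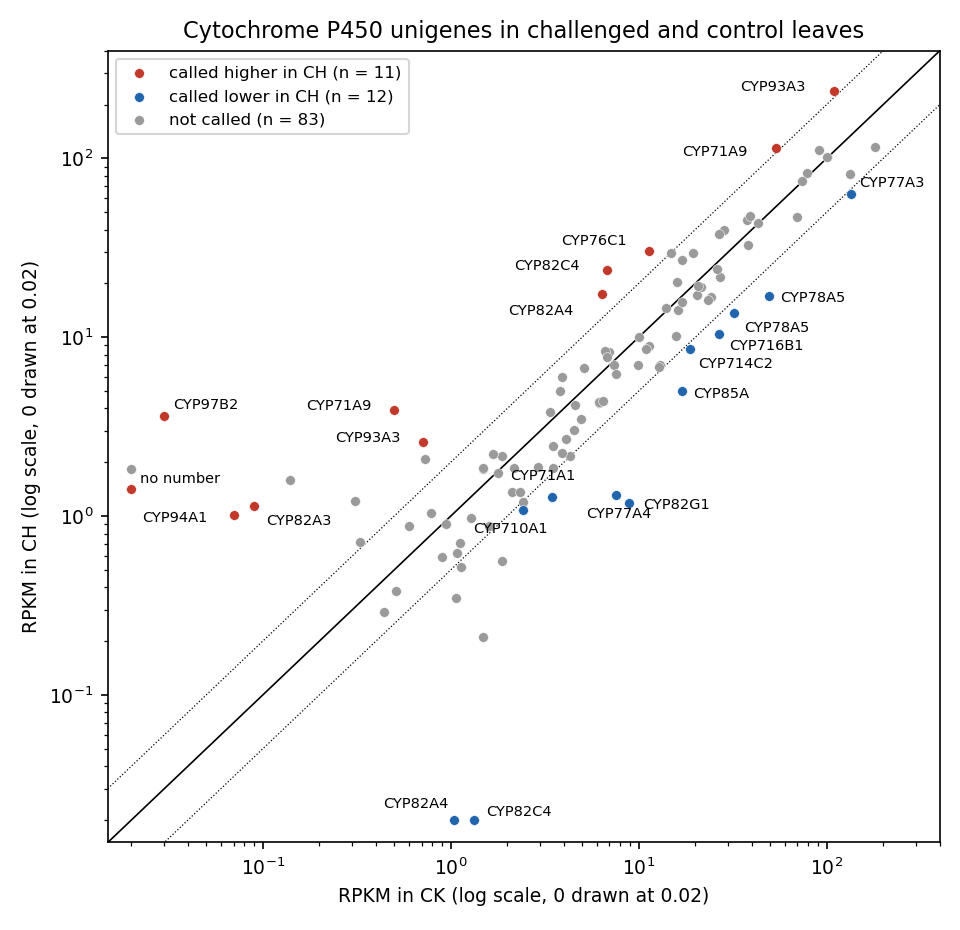
Level of each of the 106 members with at least 10 reads, in RPKM on log axes, in CH (vertical) and CK (horizontal). The solid line marks equal levels and the dotted lines 2-fold differences, red points are the 11 members called higher in CH and blue points the 12 called lower, and most points lie between the dotted lines.

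**Figure D2:**
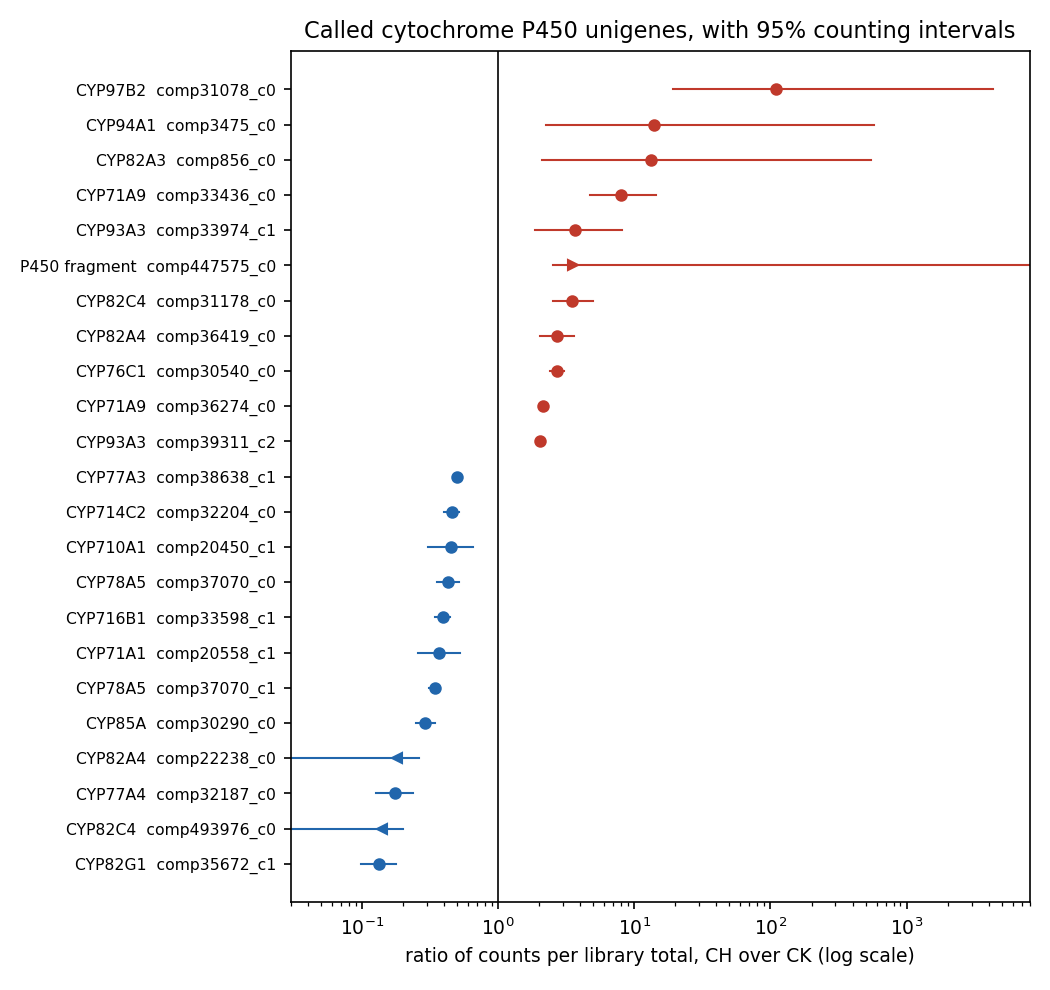
Ratio of counts per library total, CH over CK, on a log axis for the 23 called members, with exact 95% counting intervals. Triangles are bounds for members with 0 reads in one library, and the intervals of the members with 1 read in CK, CYP97B2 among them, are the widest of those with reads in both libraries.

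Families known for specialised metabolism (CYP71, CYP76, CYP81, CYP82, CYP89 and CYP93) held 76 members. Of the 72 with a read, 8 (11.1%) were higher and 4 (5.56%) lower in CH, against 2.48% and 4.28% of unigenes with a read. Among all unigenes with at least 10 reads, the closer background, 4.54% were higher and 7.71% lower. Of the 50 members at that depth, the same 8 were higher and the same 4 lower. The summed RPKM of the 76 members was 1110 in CH and 942 in CK. Their summed reads per library total were 1.22-fold higher in CH (1.20 to 1.24). The median log2 ratio of the 50 members with at least 10 reads was -0.04, so the larger sum in CH did not go with a shift of most members.

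CYP93A3 gave the most abundant member in CH. Family CYP93 is known from legumes, where CYP93A1 of soybean hydroxylates a pterocarpan precursor of phytoalexins. The unigene comp39311_c2 had 7593 reads (239 RPKM) in CH and 2455 reads (109 RPKM) in CK, a ratio of 2.04 (1.95 to 2.14). It ranked first of all members by mean RPKM. A shorter CYP93A3 unigene, comp33974_c1, had 56 reads in CH and 10 in CK, a ratio of 3.70 (1.87 to 8.13).

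Most CYP93 members lay above a ratio of 1. Of the 8 CYP93 members with at least 10 reads, 7 had a ratio above 1, and the median log2 ratio was 0.67. Summed CYP93 reads per library total were 1.80-fold higher in CH (1.74 to 1.87), and 1.36-fold higher (1.27 to 1.45) without comp39311_c2. Among members that were not called, comp39038_c0 had 1296 reads in CH and 500 in CK, a ratio of 1.71 (1.54 to 1.90), and comp39311_c0, of the same component as the leading unigene, had 346 in CH and 178 in CK, a ratio of 1.28 (1.07 to 1.55).

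CYP71 was the largest family, with 30 members, of which 18 had at least 10 reads. It takes in enzymes of terpenoid, alkaloid and phytoalexin synthesis in many plants. Both unigenes named CYP71A9, after a soybean protein, were higher in CH. The abundant one, comp36274_c0, had 6595 reads (114 RPKM) in CH and 2042 reads (53.6 RPKM) in CK, a ratio of 2.13 (2.03 to 2.24). The rarer one, comp33436_c0, had 181 reads (3.94 RPKM) in CH and 15 reads (0.50 RPKM) in CK, a ratio of 7.97 (4.71 to 14.5).

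The other CYP71 members did not follow these unigenes. CYP71A1, named after an avocado enzyme of ripening fruit, was lower in CH in comp20558_c1, with 51 reads in CH and 91 in CK, a 2.70-fold difference (1.90 to 3.88). Of the 18 members with at least 10 reads, 11 had a ratio below 1, and the family median log2 ratio was -0.27. The more abundant CYP71A1 unigene comp32965_c0 had 1592 reads (32.8 RPKM) in CH and 1220 (38.1 RPKM) in CK and was not called. CYP71A6, comp38226_c0, had 1297 reads in CH and 545 in CK, a ratio of 1.57 (1.42 to 1.74), below the 2-fold limit.

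CYP82 had the most calls of any family, 3 higher and 3 lower among its 18 members with a read. In Arabidopsis, CYP82G1 carries out the last step in the synthesis of homoterpenes, volatiles that leaves release when insects feed, CYP82C4 makes a coumarin used in iron uptake, and CYP82C2 a defense compound derived from tryptophan. The CYP82G1 unigene comp35672_c1 had 57 reads (1.19 RPKM) in CH and 281 reads (8.88 RPKM) in CK, 7.46-fold lower in CH (5.60 to 10.1). This was the only unigene named CYP82G1, and among the called members with reads in both libraries it was the most reduced in CH.

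Both CYP82A and CYP82C held calls in each direction, while their sums differed. Summed reads per library total were 2.26-fold higher in CH for CYP82A (1.78 to 2.88) and 1.03-fold for CYP82C (1.01 to 1.06). Unigene comp36419_c0 held 83.1% of the CYP82A reads in CH. Higher in CH were CYP82C4 comp31178_c0, with 234 reads in CH and 44 in CK (ratio 3.51, 2.54 to 4.97), and CYP82A4 comp36419_c0, with 261 in CH and 64 in CK (ratio 2.69, 2.04 to 3.60). CYP82A3 comp856_c0 had 20 reads in CH and 1 in CK, a ratio of 13.2 whose interval ran from 2.11 to 548. Lower in CH were CYP82C4 comp493976_c0, with 0 reads in CH and 14 in CK, at least 7.06-fold, and CYP82A4 comp22238_c0, with 0 in CH and 11 in CK, at least 5.55-fold, both against a floor of 3 reads in the CH library.

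The abundant CYP82 transcripts differed little between the libraries. CYP82C4 comp39183_c0 had 6390 reads (74.8 RPKM) in CH and 3389 reads (73.8 RPKM) in CK, a ratio of 1.25 (1.19 to 1.30). CYP82C2 comp34848_c0 had 2539 reads (47.2 RPKM) in CH and 2495 (69.7 RPKM) in CK, 1.49-fold lower in CH (1.41 to 1.57), and was not called. The whole family summed to 255 RPKM in CH and 253 RPKM in CK, so its 6 called unigenes left the family sum level.

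Among the 6 members with a CYP76 name, which leave out P450s listed under a reaction name, CYP76C1 showed the clearest difference. In Arabidopsis this enzyme oxidises the flower and leaf volatile linalool. The unigene comp30540_c0 had 1456 reads (30.3 RPKM) in CH and 358 reads (11.3 RPKM) in CK, a ratio of 2.69 (2.39 to 3.03). Its Nr best hit carries the name CYP93A1-like, so the databases disagree on its family. CYP76A1 comp37221_c0, with 679 reads in CH and 569 in CK, and CYP76A2 comp34943_c0, with 74 in CH and 57 in CK, were not called.

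No member with a CYP81 or CYP89 name was called. Of these, 5 CYP81 and 2 CYP89 members had at least 10 reads, a depth at which 12.3% of all unigenes were called. CYP81D1 comp20649_c0, a fragment of 508 bp that was among the 3 highest by mean RPKM, had 927 reads (81.9 RPKM) in CH and 986 reads (133 RPKM) in CK, 1.61-fold lower in CH (1.47 to 1.76). All 5 CYP81 unigenes were named CYP81D1, and 4 of them had a ratio below 1. CYP89A2 comp32918_c1 had 4162 reads (102 RPKM) in CH and 2710 reads (100 RPKM) in CK, a ratio of 1.01 (0.967 to 1.07).

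**Figure D3:**
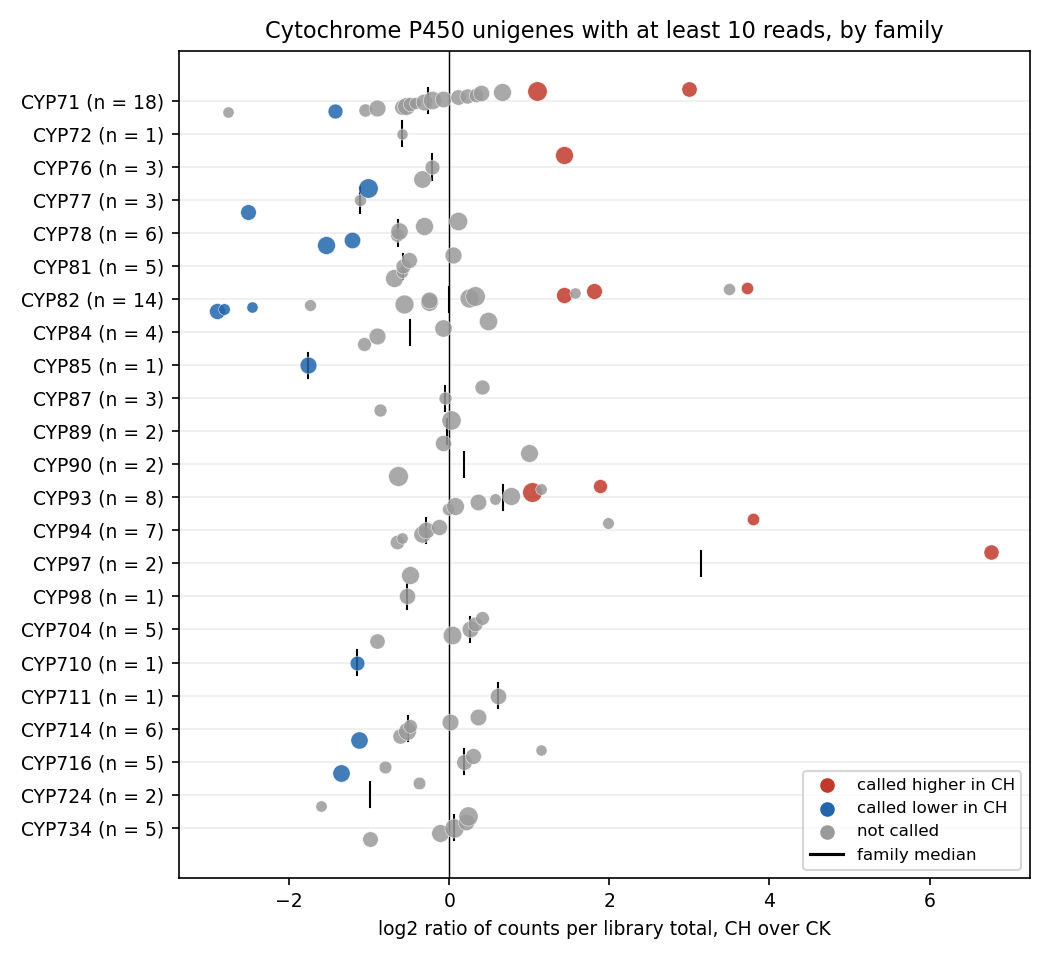
log2 ratio, CH over CK, of the members with at least 10 reads in each numbered family, with larger points for more reads, red for members called higher in CH, blue for members called lower and a black bar at the family median. CYP93 has 7 of 8 points right of 0, CYP77 and CYP78 have 3 of 3 and 5 of 6 points left of 0, and CYP82 has called points on both sides.

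Families of lignin synthesis gave no call. Only 5 of their 8 members had at least 10 reads, a depth at which 12.3% of all unigenes were called. CYP84A1 is ferulate 5-hydroxylase of Arabidopsis, which leads to syringyl lignin, and CYP98A2 is the soybean form of the enzyme that hydroxylates coumaroyl esters. CYP84A1 comp38437_c0 had 1872 reads (39.6 RPKM) in CH and 886 reads (28.5 RPKM) in CK, a ratio of 1.40 (1.29 to 1.51). CYP98A2 comp33729_c0 had 212 reads in CH and 203 in CK, 1.45-fold lower in CH (1.19 to 1.77). The 8 members of both families summed to 78.9 RPKM in CH and 78.3 RPKM in CK.

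Fatty acid oxidising families differed among themselves. CYP77 enzymes oxidise fatty acids within the chain, and in Arabidopsis CYP77A4 epoxidises unsaturated fatty acids and CYP77A6 is needed for the cutin of petals. CYP77A3 comp38638_c1 had 3590 reads (63.7 RPKM) in CH and 4779 reads (135 RPKM) in CK, 2.01-fold lower in CH (1.93 to 2.10). CYP77A4 comp32187_c0 had 54 reads (1.31 RPKM) in CH and 205 reads (7.56 RPKM) in CK, 5.75-fold lower in CH (4.24 to 7.91). All 3 CYP77 members with at least 10 reads had a ratio below 1, and the 4 members summed to 2.07-fold fewer reads per library total in CH (1.98 to 2.16).

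CYP94 enzymes hydroxylate the ends of fatty acids, as CYP94A1 of Vicia sativa does, and in Arabidopsis CYP94B3 and CYP94C1 also oxidise jasmonoyl-isoleucine, the active jasmonate. One of 9 members was called: CYP94A1 comp3475_c0, with 21 reads in CH and 1 in CK, a ratio of 13.9 with an interval from 2.23 to 574. The more abundant CYP94A1 comp38153_c0 had 576 reads (8.62 RPKM) in CH and 482 (10.9 RPKM) in CK and was not called. Of the 7 members with at least 10 reads, 5 had a ratio below 1. CYP704C1, named after a pine protein, had 8 unigenes and no call. Its most abundant, comp36772_c0, had 2111 reads (43.8 RPKM) in CH and 1366 reads (43.3 RPKM) in CK.

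A P450 fragment with no family number had reads in CH alone. The unigene comp447575_c0 had 16 reads in CH and 0 in CK, at least 3.52-fold higher in CH against the floor of 3 reads. Its Swiss-Prot hit is a sunflower fragment, and its Nr best hit is named CYP94A1-like. The only other member without a number, comp606319_c0, had 3 reads in CH and 2 in CK and the same Nr name. Only 3 members carried the GO term of defense response to insects, comp447575_c0 and, of one component, CYP94A1 comp27298_c1 with 12 reads in CH and 2 in CK and CYP94A2 comp27298_c0 with 7 in CH and 0 in CK. The last pair was not called.

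CYP78, a family of organ growth, had a ratio below 1 in 5 of its 6 members, and 2 of them were called lower in CH. All 6 had at least 10 reads, a depth at which 7.71% of all unigenes were lower. In Arabidopsis CYP78A5 (KLUH) keeps cells of leaf and flower primordia dividing, and CYP78A7 overlaps with it in setting the pace of leaf formation. CYP78A5 comp37070_c1 had 644 reads (17.0 RPKM) in CH and 1241 reads (49.7 RPKM) in CK, 2.92-fold lower in CH (2.65 to 3.21). CYP78A5 comp37070_c0 had 192 reads in CH and 294 in CK, 2.32-fold lower (1.93 to 2.79), but it belongs to the same component and the pair may be parts of one gene. CYP78A7 comp38331_c0, the most abundant of the family, had 1777 reads (45.5 RPKM) in CH and 1093 (37.7 RPKM) in CK, a ratio of 1.07 (0.996 to 1.16), and CYP78A9 comp35028_c0 had 1096 in CH and 899 in CK, 1.24-fold lower (1.14 to 1.36).

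Markers of dividing cells gave no call, while 6.76% of all unigenes with a read were called in either direction. The 4 cyclin-B unigenes summed to 78.1 RPKM in CH and 62.8 RPKM in CK, and the 5 histone H4 unigenes to 551 in CH and 529 in CK. Leaf mesophyll markers were lower in CH. Called lower were 2 of 11 rubisco small chain unigenes, 4 of 14 of rubisco activase and 12 of 50 of chlorophyll a-b binding protein. None was higher, and over all unigenes with a read 4.28% were lower. The summed RPKM of the small chain was 3236 in CH and 13786 in CK. It was 7994 in CH and 18886 in CK for the activase, and 16288 in CH and 35612 in CK for the chlorophyll binding proteins. These proteins are defining for a leaf and were abundant in both libraries, and the part of this difference in the P450 results was not tested. The 10 unigenes of the secondary wall cellulose synthases CesA4, CesA7 and CesA8 summed to 7.49 RPKM in CH and 11.5 RPKM in CK, the single SUC2 unigene of phloem had 46.5 RPKM in CH and 32.3 RPKM in CK, with no call in either list, and no unigene was named sieve element occlusion.

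Of the well measured members of brassinosteroid synthesis, CYP85A was called and CYP90A1 and CYP90B1 were not. In Arabidopsis these growth hormones are made from campesterol by CYP90B1 (DWF4), which hydroxylates the side chain in the step that limits the pathway, by CYP90A1 (CPD), and by CYP85A enzymes, which make castasterone and brassinolide at its end. CYP90B1 comp36193_c0 had 1209 reads (29.7 RPKM) in CH and 401 reads (14.9 RPKM) in CK, a ratio of 1.99 (1.78 to 2.24), just under the 2-fold limit, and it was called higher with TMM or median-of-ratios scaling. CYP90A1 comp35205_c0, the most abundant member in CK, had 5980 reads (116 RPKM) in CH and 6155 reads (181 RPKM) in CK, 1.56-fold lower in CH (1.50 to 1.61), and was not called. CYP85A comp30290_c0 had 215 reads (4.99 RPKM) in CH and 485 reads (17.1 RPKM) in CK, 3.41-fold lower in CH (2.90 to 4.03). Outside the members, the 2 unigenes named 3-epi-6-deoxocathasterone 23-monooxygenase, a brassinosteroid oxidase, were not called. The more abundant, comp33921_c0, had 1535 reads (30.75 RPKM) in CH and 795 (24.15 RPKM) in CK, a ratio of 1.28 (1.17 to 1.39).

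CYP734A1 (BAS1) of Arabidopsis inactivates brassinosteroids, and none of its 6 unigenes was called. Of the 6, 5 had at least 10 reads, a depth at which 12.3% of all unigenes were called. Comp39115_c0 had 4511 reads (112 RPKM) in CH and 2537 reads (91.0 RPKM) in CK, a ratio of 1.17 (1.12 to 1.23). Comp39212_c0 had 4030 reads (82.7 RPKM) in CH and 2568 reads (78.7 RPKM) in CK, a ratio of 1.04 (0.987 to 1.09). The least abundant of the 5 with at least 10 reads, comp31878_c0, had 99 reads in CH and 130 in CK, 1.99-fold lower in CH (1.52 to 2.61), and also stayed just under the limit. CYP72C1, another inactivating enzyme of Arabidopsis, and CYP724B1, a synthesis enzyme of rice, had at most 14 reads in either library and no call.

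CYP714 enzymes act on gibberellins, the growth hormones that lengthen stems, with CYP714A1 inactivating them in Arabidopsis and CYP714B1 hydroxylating them in rice. CYP714C2 comp32204_c0 had 412 reads (8.55 RPKM) in CH and 594 reads (18.7 RPKM) in CK, 2.18-fold lower in CH (1.92 to 2.48). CYP714C2 comp57863_c0 had 384 reads in CH and 198 in CK, a ratio of 1.28 (1.08 to 1.53), so unigenes of one name lay on both sides of equality. CYP714A1 comp31907_c0, the most abundant, had 854 reads (16.2 RPKM) in CH and 814 (23.4 RPKM) in CK, 1.44-fold lower in CH (1.31 to 1.59), and was not called.

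CYP711A1 (MAX1), which acts late in the synthesis of strigolactones, hormones of shoot branching in Arabidopsis, had 309 reads (5.97 RPKM) in CH and 134 reads (3.93 RPKM) in CK in comp34986_c0. The ratio of 1.52 (1.24 to 1.88) did not reach the limit.

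Sterol and triterpene families gave 2 lower calls and none higher. Of their 9 members 6 had at least 10 reads, and 7.71% of all unigenes at that depth were lower. CYP710A1, the sterol desaturase of Arabidopsis that makes stigmasterol, had 49 reads in CH and 72 in CK in comp20450_c1, 2.22-fold lower in CH (1.53 to 3.27). CYP716B1, named after a spruce protein of a family that oxidises triterpenes in many flowering plants, had 417 reads (10.5 RPKM) in CH and 704 reads (26.7 RPKM) in CK in comp33598_c1, 2.56-fold lower in CH (2.26 to 2.89). The next CYP716 unigenes, CYP716B2 comp33661_c0 with 185 reads in CH and 100 in CK and CYP716B1 comp36182_c0 with 161 in CH and 94 in CK, had ratios of 1.22 and 1.13 and were not called. CYP87A3, a rice name to which no role is given here, had 3 unigenes and no call, the most abundant being comp28634_c0 with 96 reads in CH and 48 in CK.

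CYP97 enzymes hydroxylate the rings of carotenoids in the chloroplast. One of the 2 unigenes named CYP97B2 had the largest ratio of all members: comp31078_c0 had 165 reads (3.65 RPKM) in CH and 1 read (0.03 RPKM) in CK, a ratio of 109 with an interval from 19.3 to 4332. It was the single member closest to an organism outside land plants, the green alga Chlorella variabilis. Over all unigenes, 13 were closest to Chlorella, and the other 12 summed to 155 reads in CH and 9 in CK, with 3 of them higher in CH. These include a cytokinin hydroxylase unigene, comp29597_c0, with 63 of the reads in CH and 0 in CK. Over 8 genera of green algae together, 113 unigenes summed to 3616 reads in CH and 6139 in CK. Of the 113, 48 had 0 reads in CK. Called higher in CH were 14 and lower 3, against 2.48% higher and 4.28% lower over all unigenes with a read. The part of RNA from another organism in the ratio of comp31078_c0 was not tested. The second unigene, comp38985_c1, had 906 reads (7.03 RPKM) in CH and 842 (9.90 RPKM) in CK, 1.41-fold lower in CH (1.28 to 1.55), and the Nr name of its source was a land plant.

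**Figure D4:**
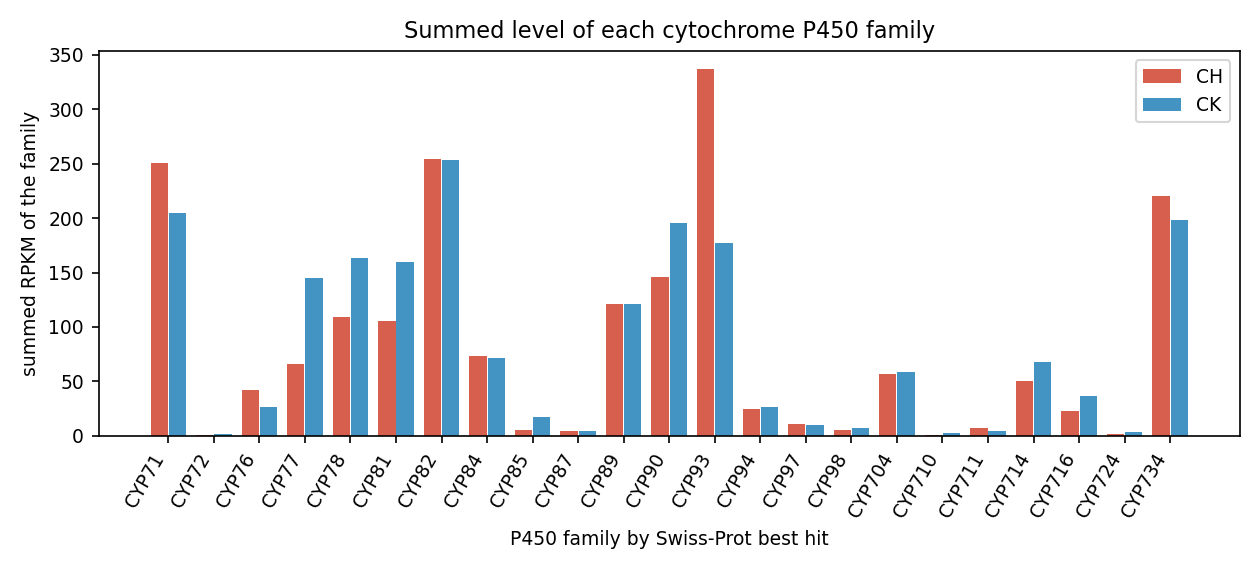
Summed RPKM of all members of each numbered family, CH beside CK, on a linear axis from 0. CYP93 has the largest sum in CH (337, against 177 in CK), CYP82 the largest in CK (253, against 255 in CH), and CYP77 shows 65.5 in CH beside 145 in CK.

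Proteins that pass electrons to P450s gave no call among 15 unigenes named NADPH-cytochrome P450 reductase, cytochrome b5 or NADH-cytochrome b5 reductase, 12 of them with at least 10 reads and a median log2 ratio of 0.04. Of all unigenes with at least 10 reads, 12.3% were called in either direction. The summed reads of the 15 named unigenes per library total were 1.17-fold higher in CH (1.14 to 1.20). Reductase comp33763_c1 had 5511 reads (84.5 RPKM) in CH and 2756 (64.0 RPKM) in CK, a ratio of 1.32 (1.26 to 1.38). Cytochrome b5 comp32348_c0 had 2342 reads (115 RPKM) in CH and 941 (70.2 RPKM) in CK, a ratio of 1.64 (1.52 to 1.78), the largest among these proteins with at least 10 reads in each library.

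P450 enzymes that Swiss-Prot lists under the name of their reaction, 77 unigenes, gave 9 higher and 9 lower calls. Of these unigenes, 75 had a read and 55 had at least 10 reads. All 9 higher and 9 lower unigenes were among the 55. Over all unigenes with a read, 2.48% were higher and 4.28% lower. Among all unigenes with at least 10 reads, the shares were 4.54% and 7.71%. The 77 unigenes are not members, because their names lack the words cytochrome P450. These names give no family number, so some of the 77 may belong to families described above, whose counts leave them out. For example, isoflavone 2'-hydroxylase comp20649_c1 shares its component with CYP81D1 comp20649_c0. The 77 took a larger share than the members in CH and a smaller one in CK: 0.514% of the reads in CH and 0.289% in CK. Allene oxide synthase (0.195% in CH, 0.0660% in CK) and phenylalanine N-monooxygenase (0.0941% in CH, 0.00519% in CK) made up most of that difference. Phenylalanine N-monooxygenase comp36361_c0, an enzyme that turns phenylalanine into its oxime in Arabidopsis, had 25343 reads (420 RPKM) in CH and 923 reads (23.2 RPKM) in CK, a ratio of 18.1 (17.0 to 19.4), and was more abundant in CH than any member.

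Hormone P450s of this list moved in both directions. Allene oxide synthase, which makes the precursor of jasmonates, was higher in CH in 4 of 8 unigenes. The ratios of these 4 ran from 3.05 (2.95 to 3.16) in comp30752_c0 to 4.35 (4.11 to 4.61) in comp38024_c0. The first had 18422 reads in CH and 3985 in CK, and the second 8878 in CH and 1349 in CK. Abscisic acid 8'-hydroxylases, which inactivate abscisic acid, were higher in comp30547_c0, with 383 reads in CH and 59 in CK, and lower in comp34158_c0, with 101 in CH and 362 in CK, and in comp38867_c3, with 23 in CH and 85 in CK. Cytokinin hydroxylase comp29597_c0 had 63 reads in CH and 0 in CK, at least 13.9-fold higher in CH, but its Nr best hit is Chlorella variabilis, as for CYP97B2 comp31078_c0, and the part of RNA from another organism was not tested here either.

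The phenolic and terpenoid P450s of the list held most of its lower calls. Flavonoid 3',5'-hydroxylase, an enzyme of blue and purple pigments, was lower in CH in 3 of 5 unigenes, for example comp26369_c0 with 18 reads in CH and 105 in CK. Trans-cinnamate 4-monooxygenase, a P450 of the phenylpropanoid pathway, was lower only in comp34547_c1, with 58 reads in CH and 134 in CK. In the same component, comp34547_c2 had 3054 in CH and 2770 in CK and was not called. Geraniol 8-hydroxylase was lower in comp32233_c0 (2603 reads in CH, 3909 in CK) and comp16498_c0 (130 in CH, 243 in CK) and higher in comp219741_c0 (81 in CH, 19 in CK). The remaining calls were isoflavone 2'-hydroxylase comp34560_c0, higher with 1071 reads in CH and 278 in CK, and carotene epsilon-monooxygenase comp31698_c0, lower with 533 in CH and 713 in CK. Secologanin synthase comp33267_c0 was the most abundant P450 of either library, with 455 RPKM in CH and 327 RPKM in CK, and was not called.

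Family CYP86, whose enzymes hydroxylate the ends of fatty acids for cutin and suberin, was lower in 2 of 11 unigenes. Of the 11, 7 had at least 10 reads, and 7.71% of all unigenes at that depth were lower. CYP86A2 comp35895_c0 had 271 reads (4.23 RPKM) in CH and 3282 reads (78.3 RPKM) in CK, 18.3-fold lower in CH (16.2 to 20.8). CYP86B1 comp34516_c0 had 1004 reads (17.9 RPKM) in CH and 2060 (55.5 RPKM) in CK, 3.11-fold lower (2.88 to 3.35). The remaining 9 unigenes of the family were not called.

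**Figure D5:**
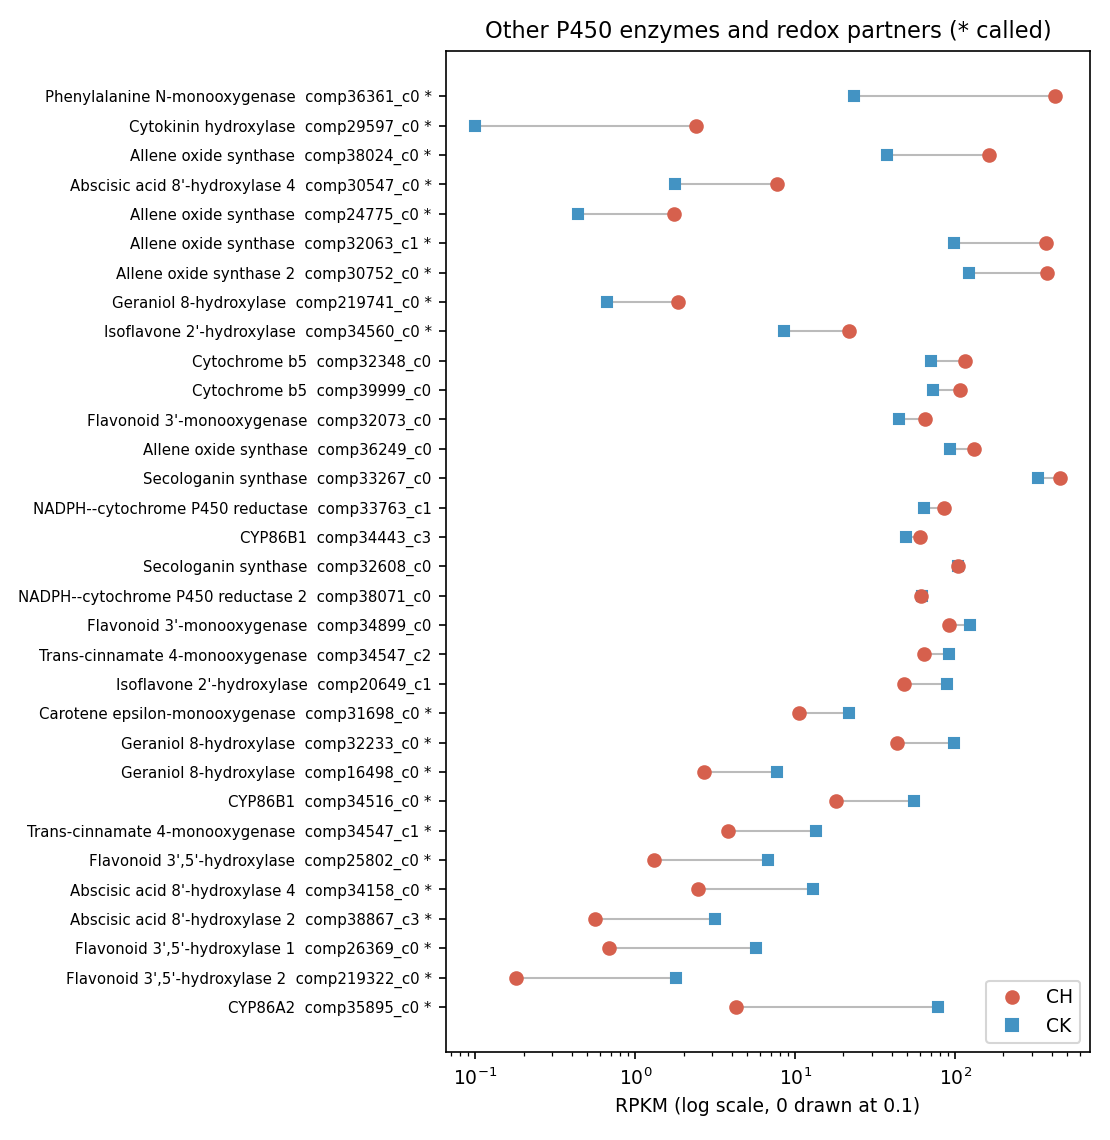
RPKM on a log axis in CH (circles) and CK (squares) for P450 enzymes under reaction names, CYP86 and redox partners that were called (asterisk) or averaged at least 50 RPKM, ordered by ratio with the largest CH over CK at the top. Phenylalanine N-monooxygenase (420 RPKM in CH, 23.2 in CK) stands at the top and CYP86A2 (4.23 in CH, 78.3 in CK) at the bottom.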

How the data were processed

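Leaf RNA of 2 pooled libraries (CH and CK) was sequenced, and the authors assembled the reads with Trinity (k-mer 25). The authors deposited per unigene an expected count of fragments, not normalized, and RPKM, which divides the count by effective length and library total. The counts came from a mapper and a counter not given in the sources used here. The submitters' processing notes name DESeq without a version. Expected counts were rounded to whole reads. They total 26938918 in CH and 17800062 in CK. With 1 library per group no replicate spread could be estimated, and intervals cover counting error only.

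Members were found by the words cytochrome P450 in the Swiss-Prot name. The members and the lists of families, roles, markers and other P450s were chosen with earlier results of these data known, and some list words were corrected after the annotation was read. The 8 genera searched for green algae were chosen after the Chlorella hit was seen. The 2-sided Audic-Claverie test was run on 43302 unigenes with at least 1 read and adjusted by Benjamini-Hochberg. Calls required both an adjusted p below 0.01 and a 2-fold difference in RPKM. Count ratios, scaled to library totals, have exact (Clopper-Pearson) 95% intervals. A count of 0 was set to a floor of 3 reads per library. The test was tested on simulated data. At 10 reads in CK, 43 reads in CH (2.84-fold) were the fewest called higher, and only 0 or 1 read in CH was called lower. At 20 reads in CK the limits were 66 reads (2.18-fold) and 9 reads (3.36-fold).

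Members are named by rule: up to 15 called in each direction and the 10 of highest mean RPKM. Also named by rule is the most abundant of each family with at least 3 members of at least 10 reads. For other P450s and redox partners, the text names only some of those called and only some of the most abundant of a name. Further members, among them CYP90B1, CYP711A1, CYP98A2, CYP71A6, CYP72C1 and not-called unigenes beside a called one, were named after their values were seen. Other settings tried were the exact binomial test, the exact test of edgeR with an assumed spread, TMM and median-of-ratios scaling, filters, pseudocounts, thresholds and membership. TPM was not used. Python 3.11.15, numpy 2.4.6, pandas 2.3.3, scipy 1.17.1, matplotlib 3.10.9, R 4.3.3 and edgeR 4.0.16 were used.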

Additional observations from a re-analysis of the deposited data

How the results depend on the processing

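Counts of members called, 11 higher and 12 lower in CH, depended most on the spread that is assumed. With the exact test of edgeR and an assumed biological coefficient of variation of 0.2, 3 were higher (CYP97B2 comp31078_c0, CYP71A9 comp33436_c0 and CYP82C4 comp31178_c0) and 4 lower (CYP82G1, CYP77A4, CYP85A and CYP82C4 comp493976_c0). With 0.4, 1 was higher, CYP97B2 comp31078_c0, and 0 were lower. Over all unigenes these settings gave 495 higher and 579 lower, and 134 higher and 52 lower, against 1075 and 1854. A requirement of 10 reads in each library left 7 higher (632 higher and 1574 lower over all unigenes), and so did, chosen after seeing the data, at least 4 reads in the lower library. A 4-fold threshold left 5 higher and 4 lower (585 and 654 over all unigenes). These filters and this threshold let fewer members pass by construction, and the cause of the loss under the assumed spread is the wider error it sets. TMM scaling gave 12 higher and median-of-ratios scaling 13, each with the 11 members and CYP90B1 comp36193_c0, and the second with CYP82A4 comp17128_c0 as well, and both gave 12 lower. Every other alternative gave 8 to 12 higher and 10 to 14 lower. None of the 36 members named by rule changed direction under the alternatives run for them. The median log2 ratio ranged from -0.25 to -0.13. No paired analysis was possible because each group has 1 library. Depth limits the rarer members: 47 had fewer than 10 reads over both libraries and none of them was called.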

Other observations

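A few unigenes carried a P450 name in Nr but not in Swiss-Prot and so were not members. There were 4 of them, and 1 passed the rule for a call: comp26369_c1, named CYP76C1-like in Nr and Ent-cassadiene C2-hydroxylase in Swiss-Prot, had 7 reads in CH and 18 in CK. It shares its component with the flavonoid 3',5'-hydroxylase unigene comp26369_c0, which had 18 reads in CH and 105 in CK. Of the others, comp2885_c0, named CYP94A2-like in Nr, had 6 reads in CH and 1 in CK, comp23671_c0, closest to a P450 of the fungus Neofusicoccum parvum, had 7 in CH and 0 in CK, and comp4780_c0 had 1 in each.

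For 2 members, of those with at least 10 reads, the ratio of counts and the ratio of RPKM were furthest apart, and the effective length the authors used also differed between the libraries. CYP71B37 comp35806_c0 had 135 reads (3.49 RPKM) in CH and 83 reads (4.94 RPKM) in CK, a count ratio of 1.07 and an RPKM ratio of 0.707. CYP93A3 comp36932_c0 had 969 reads (37.6 RPKM) in CH and 612 reads (26.8 RPKM) in CK, a count ratio of 1.05 and an RPKM ratio of 1.40. Neither was called. The effective length differed by over 10% between the libraries in 6 members.

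Pieces of one component did not always move together. Of the 13 components with several members, comp37070 (CYP78A5) had both of its members called, and comp39311 (CYP93A3) had 1 of its 2 called. In the remaining 11 no member was called. The called CYP82A4 unigene comp36419_c0, higher in CH, was placed in a COG class of translation (J) and not of secondary metabolites.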
